A study of Mus musculus with 5 samples.

Results

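Liver sinusoidal endothelial-like cells were a small non-neutrophil population in a series of sorted mouse neutrophils. They were taken as cells with at least 5 UMIs (unique molecular identifiers, each counting 1 captured mRNA molecule) summed over Clec4g, Stab2 and Oit3, among barcodes that passed 3 filters, namely 200 or more UMIs, 100 or more genes and a mitochondrial share of UMIs below 20%. This gave 751 of 36720 cells, of which 750 were in the library YO1 and 1 was in the library YO2. The 750 cells of YO1 are called sinusoidal cells here, and the other cells are all filtered cells that did not reach the 5 UMIs. The series sorted living CD11b+Ly6G+ cells, without DAPI uptake, from lung, liver, spleen, intestine, blood and bone marrow of C57BL/6 mice kept at steady state under specific pathogen-free conditions. Each of the 2 libraries pooled tissues and 2 ages, with young mice of 10 weeks by the sample labels and 8 weeks by the design text, and old mice of 20 months. Cell barcodes carried the library but neither the tissue nor the age, so the liver in the name rests on marker genes, and no comparison of ages or tissues was made. No genotype or treatment was given beyond this.

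Sinusoidal endothelial cells line the capillaries of the liver. They are perforated by open fenestrae and lie on little basement membrane, and they take up waste macromolecules from blood through scavenger receptors such as stabilin-1 and stabilin-2. They secrete factor VIII, and they supply hepatocytes and stellate cells with signals such as BMP2 and Wnt ligands. Clec4g encodes a C-type lectin of these cells, Stab2 the hyaluronan receptor stabilin-2, and Oit3 a secreted zona pellucida domain protein.

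In the GRCm38 annotation Clec4g lies on chr8:3707064-3720651 (minus strand), Stab2 on chr10:86841198-87008025 (minus strand) and Oit3 on chr10:59422958-59441778 (minus strand). All 3 are protein-coding genes. The 250 bases upstream of the RefSeq start of Clec4g and of the 2 genes with the highest ratio between sinusoidal and other cells, Igfbp7 and Aqp1, are shown because these genes set the cells apart (RefSeq, GRCm38.p6, each 5′ to 3′ on the gene's strand). They lie at chr8:3720652-3720901 (minus strand), chr5:77408046-77408295 (minus strand) and chr6:55336049-55336298 (plus strand). Capitals mark the letters AGGAAG or their reverse complement CTTCCT, the core that ETS family factors such as Erg and Ets1 bind.
Clec4g: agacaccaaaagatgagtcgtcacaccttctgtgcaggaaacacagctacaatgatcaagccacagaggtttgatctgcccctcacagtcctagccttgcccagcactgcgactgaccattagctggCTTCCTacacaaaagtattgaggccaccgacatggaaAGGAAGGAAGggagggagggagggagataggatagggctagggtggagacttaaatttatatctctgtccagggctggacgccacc
Igfbp7: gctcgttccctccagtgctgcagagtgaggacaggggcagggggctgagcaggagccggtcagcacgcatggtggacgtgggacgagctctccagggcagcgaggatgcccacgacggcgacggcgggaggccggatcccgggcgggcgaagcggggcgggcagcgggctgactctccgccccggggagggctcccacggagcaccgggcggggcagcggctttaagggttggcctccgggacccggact
Aqp1: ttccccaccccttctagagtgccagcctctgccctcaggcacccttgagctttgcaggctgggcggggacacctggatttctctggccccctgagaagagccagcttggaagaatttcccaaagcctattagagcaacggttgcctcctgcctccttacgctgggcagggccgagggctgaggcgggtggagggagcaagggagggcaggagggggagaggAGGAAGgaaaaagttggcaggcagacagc
Clec4g held 3 matches, 2 of which overlapped, Aqp1 held 1 and Igfbp7 held 0. Over the 14 windows available for 12 of the 20 genes with the highest ratios, 4 windows held AGGAAG on either strand (28.6%), against 29.5% of 32851 windows of mouse genes. GATAA was in 2 of the 14 windows (14.3%) against 22.6% of all windows, and AACAAT, a SOX core, was in 0 of 14 against 9.42%. These are matches of letters and say nothing of binding.

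After filtering, YO1 held 19505 cells with a median of 1231 UMIs and YO2 held 17215 cells with a median of 1454 UMIs. The labels give up to 60000 sorted cells for labelling, against 38072 barcodes in the count matrix, of which 1352 were left out by the filters. The libraries shared 406 barcode names, 13 of them borne by a sinusoidal cell. No doublets were removed and no doublet caller was run. Since 1 library held nearly all sinusoidal cells, no difference between sinusoidal and other cells has a replicate or a test. Median mitochondrial shares were 5.95% in sinusoidal cells, 8.22% in B-lineage cells and 0.583% in neutrophils of YO1. Values are CPM, the UMIs of a gene scaled to the total of the summed cells. Ratios are log2 with 1 CPM added to both sides, those against all other cells include the 1 cell of YO2, and 95% exact intervals cover counting error only.

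Cells that met the threshold made up 3.85% of YO1 (3.58 to 4.12%) and 0.00581% of YO2 (0.000147 to 0.0324%). The summed UMIs of the 3 genes were 0 in 18147 cells of YO1, 1 in 492 cells and 2 to 4 in 116 cells. The 750 selected cells had a median of 21, with quartiles of 14 and 29 and a maximum of 61. At the threshold, the 21 cells with 5 UMIs had a median of 15 UMIs over the endothelial genes Kdr, Ptprb, Ehd3 and Igfbp7, and the 17 cells with 4 UMIs had a median of 14. The cells just under the threshold were therefore close in these genes to those just over it. In YO2, 17182 cells had 0 UMIs of the selecting genes and 32 had 1 to 4.

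**Figure D1:**
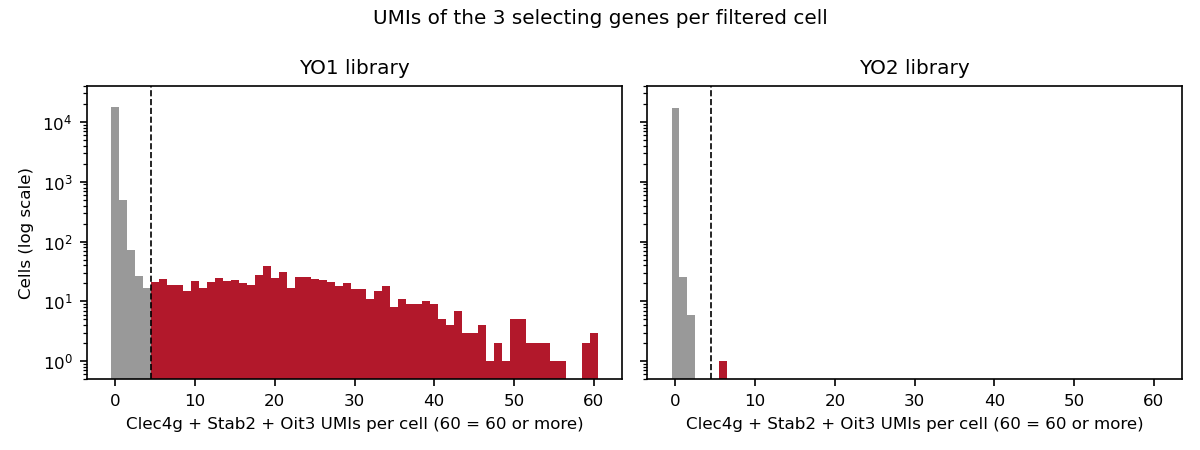
Cells (log axis) by their UMIs of Clec4g, Stab2 and Oit3 together, YO1 left and YO2 right, with the threshold of 5 UMIs as a dashed line and selected cells in red. The selected cells of YO1 form a broad range around a median of 21 UMIs, and YO2 has 1 cell past the line.

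The YO2 cell had 6 UMIs of Clec4g of 7683 UMIs in all, and 0 UMIs of Stab2, Oit3, Gpr182, Ehd3, Cyp26b1, Kdr, Ptprb, Cdh5, Igfbp7 and Dnase1l3. It had 28 UMIs of Lyz2, the myeloid lysozyme gene. It had none of the endothelial genes just named, and all further values are from YO1 cells unless stated. Cd5l, Timd4 and Vsig4, macrophage genes that liver Kupffer cells express, were counted in both libraries, with 265, 104 and 53 UMIs in YO1 and 179, 299 and 36 UMIs in YO2. Clec4f, a C-type lectin restricted to Kupffer cells in mouse, had 139 UMIs in YO1 and 0 in YO2. Of the UMIs in YO1, 127 were in 10 of the 305 YO1 macrophages described below, so this contrast rests on few cells. Whether the libraries held the same share of liver cells was not tested.

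The label was checked against marker lists, beginning with 3 sinusoidal markers that the selection did not use. Gpr182, an atypical chemokine receptor, had 1545 CPM in sinusoidal cells (1493 to 1598), against 4.99 CPM in the other YO1 cells and 0.751 CPM in the other YO2 cells. Ehd3, an endocytic recycling ATPase, had 5378 CPM in sinusoidal cells, against 22.5 CPM in the other YO1 cells and 3.73 CPM in the other YO2 cells. Cyp26b1, a retinoic acid hydroxylase, had 2131 CPM in sinusoidal cells, against 8.55 CPM in the other YO1 cells and 1.31 CPM in the other YO2 cells. All 3 were low in the summed other cells. Of 31 Gpr182 UMIs and 54 Cyp26b1 UMIs in the other YO2 cells, 27 and 46 were in 55 endothelial cells without a UMI of the selecting genes. Of 154 Ehd3 UMIs there, 3 were in these cells. In YO1, 16 such cells held 3 of 186 Gpr182, 14 of 319 Cyp26b1 and 5 of 839 Ehd3 UMIs. YO1 neutrophils held 105, 164 and 504 UMIs in the same order. A UMI of Gpr182 was seen in 93.1% of sinusoidal cells, of Ehd3 in 99.9% and of Cyp26b1 in 90%. In 349 B-lineage cells of YO1 (at least 5 UMIs of Cd79a, Cd79b and Ms4a1), which should lack these genes, the shares were 0.860%, 6.59% and 0.860%. Median depth was 2678 UMIs in sinusoidal and 1528 UMIs in B-lineage cells, but after thinning to 500 UMIs per cell the Gpr182 share was still 53.3% in sinusoidal and 0 in B-lineage cells (95% exact upper limit 1.06%).

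Among 11678 genes with at least 100 UMIs, 1056 were at least 4-fold higher in sinusoidal cells than in all other cells (9.04%) and 592 at least 4-fold lower (5.07%), with a median log2 ratio of 0.17 over all genes. The members were chosen by 3 of these cells' own genes, so the counts are a description. The 100 UMIs were summed over sinusoidal and other cells, so a gene could pass through the sinusoidal cells alone. Gata4 did, with 836 UMIs in sinusoidal cells, 56 in the other YO1 cells and 1 in the other YO2 cells. Such genes could hardly be called other than higher, here and in the lists below. Of 14 further sinusoidal genes all were at least 4-fold higher, with a median log2 ratio of 5.35. Of 21 pan-endothelial genes all were also higher, with a median of 6.88. Kdr, the main VEGF receptor, had 3480.1 CPM in sinusoidal cells, against 9.47 CPM in the other YO1 cells and 7.34 CPM in the other YO2 cells, and was seen in 98.4% of sinusoidal against 0.287% of B-lineage cells. Cdh5, which encodes VE-cadherin of endothelial junctions, had 652 CPM in sinusoidal cells, against 2.49 CPM in the other YO1 cells and 6.59 CPM in the other YO2 cells. Every pan-endothelial gene listed, Pecam1 and Tie1 included, was therefore higher in these cells than in the summed other cells. Not every one was high by itself. S1pr1 had 127 CPM in sinusoidal and 168 CPM in B-lineage cells, and Erg was seen in 25.2% of sinusoidal cells.

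Genes of other vessel types were mixed. Of 13 that could be compared, 6 were at least 4-fold higher, 1 lower (2 against the other YO1 cells alone) and 6 neither. Gpihbp1, which carries lipoprotein lipase across capillaries, had 1911 CPM in sinusoidal cells, against 7.08 CPM in the other YO1 cells and 2.84 CPM in the other YO2 cells. Cldn5, a tight junction gene, had 687 CPM in sinusoidal cells, against 3.14 CPM in the other YO1 cells and 9.38 CPM in the other YO2 cells. The arterial genes Gja4, which encodes connexin 37, and Sox17 were also among the higher members, with 137 and 56.7 CPM in sinusoidal cells, seen in 25.6% and 13.1% of them, as were Plvap and Ednrb, with log2 ratios of 6.51 and 2.32. Plvap was seen in 52.4% of sinusoidal cells, but Ednrb in only 12 of 750, with 28 UMIs. Ednrb had 13.0 CPM in sinusoidal cells and 16.1 CPM in the YO1 macrophages described below. Other members of the list were low. Vwf, which encodes von Willebrand factor, had 5.11 CPM in sinusoidal cells and 2.76 CPM in the other YO1 cells, seen in 6 of 750 sinusoidal cells. Cd34 was seen in 4.13% of sinusoidal cells against 0.573% of B-lineage cells, and Ly6c1, a gene of continuous capillaries, in 1 cell. Car4, a carbonic anhydrase gene of lung capillaries, had 1.39 CPM in sinusoidal cells, against 64.5 CPM in the other YO1 cells and 123 CPM in the other YO2 cells. Endothelial cells without a UMI of the selecting genes held 8 of 2407 Car4 UMIs of the other YO1 cells and 98 of 5085 in YO2. Its low ratio is thus no contrast with other vessels. Bmx, lower only within YO1, was seen in 5.6% of sinusoidal cells and 16.9% of neutrophils. Of 3 lymphatic genes compared, Ccl21a, Pdpn and Reln, all had 0 UMIs in sinusoidal cells. Reln passed the 4-fold line by its fitted ratio, but with 3 UMIs as the limit for a count of 0 it was at least 2.73-fold lower, and that rested on YO2, with 6.98 CPM in the other YO2 cells and 0.268 CPM in the other YO1 cells. Prox1 was seen in 7 of 750 cells.

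Markers of other liver cells were scarce. Of 10 Kupffer and macrophage genes 5 were at least 4-fold lower and none higher (3 lower against the other YO1 cells alone, without C1qb and Timd4), and C1qb had 27.9 CPM in sinusoidal cells against 3604 CPM in the 305 YO1 cells selected as macrophages by C1qa, C1qb and C1qc. The 11 genes together summed to a median of 0 UMIs per sinusoidal cell, with a maximum of 23, and 12 of 750 cells held at least 3. Albumin (Alb), a hepatocyte product, was seen in 7.33% of sinusoidal cells, 0.573% of B-lineage cells and 0.984% of macrophages. After thinning, these shares were 1.74%, 0.289% and 0 (upper limit 1.22%). The 14 hepatocyte genes summed to a median of 0 and a maximum of 9 UMIs per sinusoidal cell. Of 3 hepatocyte genes with enough UMIs to compare, 1 was higher (Alb), 1 lower (Trf, at 494 CPM in macrophages) and 1 neither. Against the other YO1 cells alone Alb had a log2 ratio of 1.5, under the 4-fold line. Of the hepatocyte genes with too few UMIs, Ttr, Mup20, Apoa2 and Apoa1 had log2 ratios of 2.35, 2.27, 2.22 and 2.03. Against the other YO1 cells alone these were 1.91, 1.84, 1.90 and 1.82, each from at most 15 UMIs in sinusoidal cells. The rest of the genes left out were within 4-fold. Of 2 stellate cell genes 1 was higher and 1 neither. Lrat was seen in 2 cells and Pdgfrb in 0, while Ecm1, an extracellular matrix gene of that list and its higher member, had 84.6 CPM in sinusoidal cells, against 5.26 CPM in the other YO1 cells and 12.2 CPM in the other YO2 cells. Of the remaining lists, all 6 B-lineage genes were at least 4-fold lower, as were 3 of 4 cholangiocyte genes and 1 of 7 T and NK cell genes (2 against the other YO1 cells alone), and the 3 platelet genes compared were neither higher nor lower. No erythroid gene had enough UMIs to compare. The label was kept, though 6 of 13 genes of other vessel types and 1 of 2 stellate genes were higher. Few of the other cells were endothelial, 58 in YO1 and 57 in YO2 by the count given at the end. The lists therefore set endothelial cells against other cells and tell little of the vessel type or organ.

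**Figure D2:**
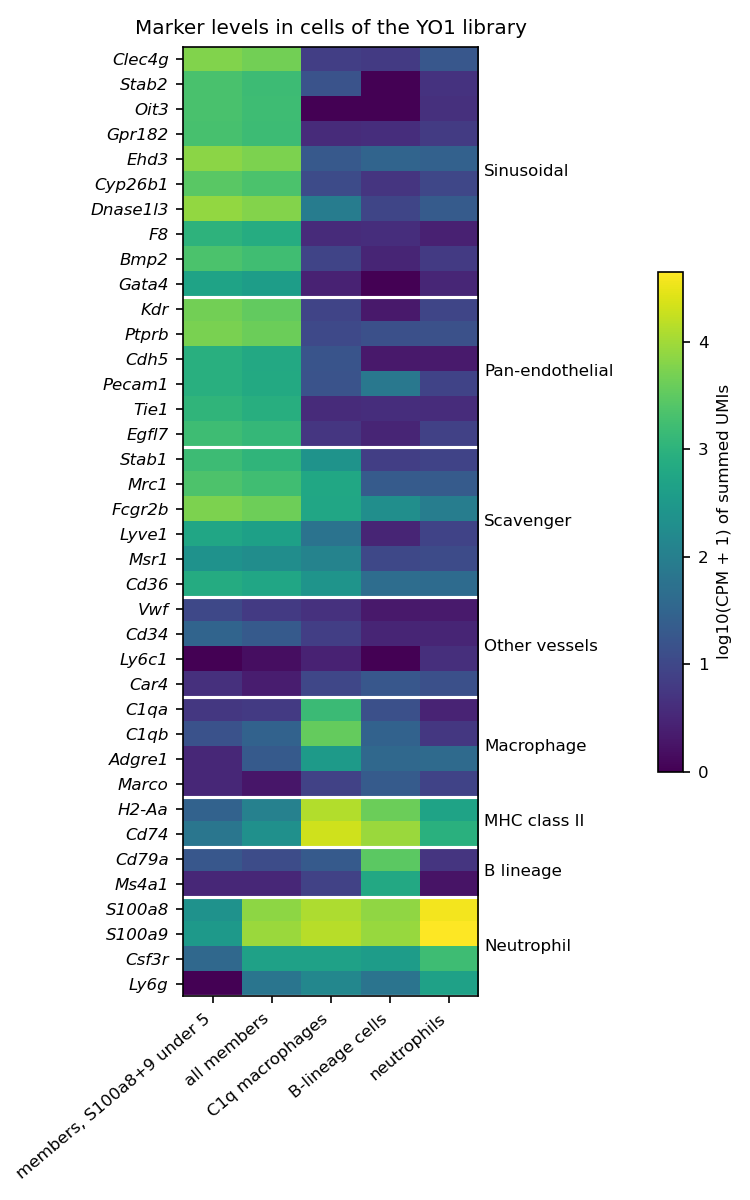
Level of marker genes (rows) in YO1 cells as log10 of CPM of summed UMIs plus 1, for sinusoidal cells with under 5 S100a8 and S100a9 UMIs, all sinusoidal cells, C1q macrophages, B-lineage cells and neutrophils. Sinusoidal and pan-endothelial genes are high in both sinusoidal columns and low in the others, and the neutrophil genes are higher in the column of all sinusoidal cells than in that with under 5 S100a8 and S100a9 UMIs. For S100a8 and S100a9 this was fixed by the selection of that column.

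The 20 named genes with the highest ratios had log2 ratios of 7.81 to 8.86 against all other cells and of 7.28 to 8.55 against the other YO1 cells alone. Igfbp7, a secreted matrix protein of vessels, led with 7482 CPM in sinusoidal cells (7367 to 7598), against 19.0 CPM in the other YO1 cells and 11.5 CPM in the other YO2 cells. A sinusoidal cell had a median of 20.5 Igfbp7 UMIs, with a 5th percentile of 4 and a 95th percentile of 42, so nearly all cells contributed. Aqp1, the water channel aquaporin-1, had 6411 CPM in sinusoidal cells, against 18.7 CPM in the other YO1 cells and 9.72 CPM in the other YO2 cells, with a median of 18 UMIs per sinusoidal cell. Dnase1l3, a secreted nuclease that clears DNA from blood, had 6153 CPM in sinusoidal cells, against 22.7 CPM in the other YO1 cells and 23.4 CPM in the other YO2 cells. It was also seen in 17.4% of the macrophages, the highest such share among the 20 genes. The others were Bmp2, F8, Plpp3, a lipid phosphatase, Ltbp4, Flt4, Fam167b, Mmrn2, Masp1, a protease of the lectin complement pathway, Ptprb, Cd59a, Hspg2, which encodes perlecan, Gata4, and Kdr, Gpihbp1, Gpr182, Ehd3 and Cyp26b1 as above. Between 57.2 and 99.9% of sinusoidal cells had a UMI of each of the 20 genes, against at most 6.59% of B-lineage cells.

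Receptors for vascular growth signals were high as a group. Of 19 genes, 16 were at least 4-fold higher and 3 neither, with a median log2 ratio of 4.25 (4.56 within YO1). Flt4, the receptor of VEGF-C and VEGF-D, had 918 CPM in sinusoidal cells, against 2.98 CPM in the other YO1 cells and 0.412 CPM in the other YO2 cells. Flt1, the decoy-like VEGF receptor, had 826 CPM in sinusoidal cells, against 38.0 CPM in the other YO1 cells and 49.6 CPM in the other YO2 cells. Nrp1, a VEGF and semaphorin co-receptor, had 1254 CPM in sinusoidal cells, against 34.0 CPM in the other YO1 cells and 32.6 CPM in the other YO2 cells. Tek, the angiopoietin receptor TIE2, had 275 CPM in sinusoidal cells, against 1.10 CPM in the other YO1 cells and 1.55 CPM in the other YO2 cells. Eng, the endoglin co-receptor of BMP9, had 1110 CPM in sinusoidal cells, against 4.08 CPM in the other YO1 cells and 4.53 CPM in the other YO2 cells. Acvrl1, the ALK1 receptor of BMP9, was the exception among the BMP receptors, with 44.6 CPM in sinusoidal cells, against 54.4 CPM in the other YO1 cells and 29.8 CPM in the other YO2 cells. Il6st, the shared receptor chain of IL-6 signals, had 1164 CPM in sinusoidal cells, against 25.3 CPM in the other YO1 cells and 33.8 CPM in the other YO2 cells. Calcrl and Ramp2, which together form an adrenomedullin receptor, had log2 ratios of 3.69 and 6.67.

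Of 15 secreted and membrane-bound signals to neighbouring cells, 10 were at least 4-fold higher, 5 neither and none lower, with a median log2 ratio of 5.49. Bmp2 and Bmp6 encode the signals by which sinusoidal cells raise hepcidin in hepatocytes. Bmp2 had 1669 CPM in sinusoidal cells, against 5.26 CPM in the other YO1 cells and 1.24 CPM in the other YO2 cells. Bmp6 had 314 CPM in sinusoidal cells, against 1.69 CPM in the other YO1 cells and 2.25 CPM in the other YO2 cells. Wnt2 and Rspo3 feed the Wnt signal of hepatocytes near the central vein. Wnt2 had 297 CPM in sinusoidal cells, against 1.02 CPM in the other YO1 cells and 0.121 CPM in the other YO2 cells, and was seen in 46.3% of sinusoidal cells. Rspo3 had 136 CPM in sinusoidal cells, against 0.858 CPM in the other YO1 cells and 0.0485 CPM in the other YO2 cells, and was seen in 10.5% of sinusoidal cells, with up to 24 UMIs in a cell. Wnt9b had 69 UMIs in 51 of 750 sinusoidal cells, 0.188 CPM in the other YO1 cells and 0 UMIs in YO2. Dll4, a Notch ligand, had 185 CPM in sinusoidal cells, against 0.509 CPM in the other YO1 cells and 1.21 CPM in the other YO2 cells. Igfbp4, an IGF-binding protein, and Gas6, a ligand of TAM receptors, had log2 ratios of 5.49 and 5.67. Hgf, the hepatocyte growth factor, reached 25.1 CPM in sinusoidal cells and 11.7 CPM in the other YO1 cells, and Il6 2.79 and 2.60 CPM. Both stayed under the 4-fold line.

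Scavenger and lectin receptors were high as a group, with 12 of 16 at least 4-fold higher, 1 lower and 3 neither, and a median log2 ratio of 2.80. Several are shared with macrophages, so C1q macrophages of YO1 served as a second comparison, in which 569 of 5248 genes (10.8%) were at least 4-fold higher in sinusoidal cells and 184 (3.51%) lower. S100a8 and S100a9 summed to at least 20 UMIs in 52.8% of these macrophages and 41.1% of sinusoidal cells, and the part of that RNA in the ratios was not tested. Against macrophages 5 of 13 scavenger genes were higher, 1 was lower and 7 neither, with a median of 1.54. Stab1, which encodes stabilin-1, had 1128 CPM in sinusoidal cells and 247 CPM in macrophages. Mrc1, the mannose receptor, had 1697 CPM in sinusoidal cells and 584 CPM in macrophages, a log2 ratio of 1.54 that stayed under the 4-fold line. Fcgr2b, the inhibitory Fc receptor that clears immune complexes, had 4290.3 CPM in sinusoidal cells and 566 CPM in macrophages. Scarf1, a scavenger receptor of endothelial cells, was the most separated of the list from all other cells, at 154 CPM in sinusoidal cells and 4.47 CPM in macrophages. Lyve1, a hyaluronan receptor, had 433 CPM in sinusoidal cells and 57.2 CPM in macrophages and was seen in 38.7% of sinusoidal cells. Lrp1, the endocytic receptor of remnant lipoproteins, went the other way, with 9.76 CPM in sinusoidal cells and 179 CPM in macrophages.

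Endocytic and lysosomal genes mostly stayed within 4-fold of the other cells. Of 18, 5 were higher and 13 neither, with a median log2 ratio of 0.87. Ctsl, which encodes cathepsin L, had 861 CPM in sinusoidal cells, against 32.4 CPM in the other YO1 cells and 43.7 CPM in the other YO2 cells, and 43.8 CPM in macrophages. Dab2, a clathrin adaptor, had 509.9 CPM in sinusoidal cells, against 50.1 CPM in the other YO1 cells and 93.5 CPM in the other YO2 cells, but a similar 439.5 CPM in macrophages. Cd63, a tetraspanin of late endosomes and lysosomes, was at least 4-fold lower in sinusoidal cells than in macrophages, at 64.1 CPM in sinusoidal cells and 435 CPM in macrophages.

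Of 25 transcription factors of endothelial and sinusoidal cells, 17 were at least 4-fold higher, 1 lower and 7 neither, with a median log2 ratio of 2.97. Gata4, which in mouse sets the sinusoidal rather than the continuous capillary programme, had 389 CPM in sinusoidal cells, against 1.5 CPM in the other YO1 cells and 1 UMI in the other YO2 cells. It was seen in 57.2% of sinusoidal and 0 of 349 B-lineage cells (upper limit 1.05%). Maf, also a sinusoidal regulator, had 2590 CPM in sinusoidal cells and 567 CPM in macrophages. Nr2f2, the venous factor COUP-TFII, had 519 CPM in sinusoidal cells, against 3.06 CPM in the other YO1 cells and 0.945 CPM in the other YO2 cells. Meis2, a homeobox factor, had 451 CPM in sinusoidal cells, against 2.25 CPM in the other YO1 cells and 0.630 CPM in the other YO2 cells. Sox18 and Bcl6b had log2 ratios of 7.03 and 6.17. Klf2, the shear-responsive factor, was as high in the other cells, with 999 CPM in sinusoidal cells, against 1019 CPM in the other YO1 cells and 1054 CPM in the other YO2 cells. Fli1 and Hhex also stayed within 4-fold.

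Vessel tone and matrix genes had 11 of 12 at least 4-fold higher and 1 lower, with a median log2 ratio of 6.44. Nos3, the endothelial nitric oxide synthase, had 104 CPM in sinusoidal cells, against 0.402 CPM in the other YO1 cells and 0.242 CPM in the other YO2 cells. Plvap, the diaphragm protein of fenestrae, had 384 CPM in sinusoidal cells, against 1.88 CPM in the other YO1 cells and 4.41 CPM in the other YO2 cells. Col4a1, a collagen of basement membrane, had 781 CPM in sinusoidal cells, against 3.51 CPM in the other YO1 cells and 5.65 CPM in the other YO2 cells. Sparc, a matrix glycoprotein, had 2064 CPM in sinusoidal cells, against 9.20 CPM in the other YO1 cells and 9.38 CPM in the other YO2 cells. Mgp was the gene called lower, with 0 UMIs in sinusoidal cells, against 2.15 CPM in the other YO1 cells and 6.15 CPM in the other YO2 cells. With 3 UMIs as the limit for a count of 0 it was at least 3.06-fold lower, and at least 1.54-fold within YO1, so a 4-fold difference was not detectable at this depth. The coagulation list had 5 of 9 genes higher, 2 lower and 2 neither. F8, which encodes factor VIII, had 768 CPM in sinusoidal cells, against 2.01 CPM in the other YO1 cells and 0.145 CPM in the other YO2 cells, while its plasma carrier Vwf was near background as given above. Tfpi, the inhibitor of the tissue factor pathway, had 309.6 CPM in sinusoidal cells, against 3.73 CPM in the other YO1 cells and 2.84 CPM in the other YO2 cells. Among lipid genes, 6 of 9 were higher, 1 lower and 2 neither. Lpl, lipoprotein lipase, was the lower gene, with 20.9 CPM in sinusoidal cells, against 264 CPM in the other YO1 cells and 434 CPM in the other YO2 cells. Apoe had 2094 CPM in sinusoidal cells and 4554 CPM in macrophages.

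Genes of antigen presentation separated by class. Of 14, 6 were at least 4-fold lower in sinusoidal cells than in all other cells, 8 neither and none higher. The lower genes were those of class II with Cd74 and Ciita, and the costimulatory gene Cd86, whose log2 ratio was -2.10 against all other cells and -1.66 against the other YO1 cells alone. H2-K1, a class I heavy chain that shares sequence with H2-D1, had 2125 CPM in sinusoidal cells, against 984 CPM in the other YO1 cells and 1015 CPM in the other YO2 cells. The class II gene H2-Aa had 111 CPM in sinusoidal cells, against 1414 CPM in the other YO1 cells and 2331 CPM in the other YO2 cells, and 13002 CPM in macrophages. It was seen in 5.73% of sinusoidal cells. Cd74, the class II invariant chain, had 211 CPM in sinusoidal cells, against 2532 CPM in the other YO1 cells and 4151 CPM in the other YO2 cells, and 20743 CPM in macrophages. Ciita, the class II transactivator, had 1 UMI in the sinusoidal cells and 23.6 CPM in the other YO1 cells. In sinusoidal cells with few S100a8 and S100a9 UMIs, H2-Aa was at 27.7 CPM and Cd74 at 66.8 CPM.

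Adhesion genes had 4 of 9 higher and 5 neither. Jam2, a junctional adhesion molecule, had 195 CPM in sinusoidal cells, against 0.724 CPM in the other YO1 cells and 0.436 CPM in the other YO2 cells. Icam1, a leukocyte integrin ligand, had 74.8 CPM in sinusoidal cells, against 26.8 CPM in the other YO1 cells and 72.6 CPM in the other YO2 cells. Vcam1 had 115 CPM in sinusoidal cells and 516 CPM in macrophages. Selectins were scarce, with Selp in 4.67% and Sele in 0.667% of sinusoidal cells. Among 10 chemokine genes 3 were higher, 3 lower and 4 neither. Cxcl9, a ligand of CXCR3, had 173 CPM in sinusoidal cells, against 18.9 CPM in the other YO1 cells and 13.1 CPM in the other YO2 cells. Cxcl16, a membrane-bound chemokine, had 256 CPM in sinusoidal cells, against 23.6 CPM in the other YO1 cells and 51.7 CPM in the other YO2 cells. Cxcl12 and Ccl5 had 0 UMIs in sinusoidal cells, and Cxcl12, called lower by its fitted ratio, was at least 2.80-fold lower by the same limit. The lower gene Ccrl2, a chemoattractant-binding receptor, had a log2 ratio of -2.36 against all other cells and -0.53 against the other YO1 cells alone. Its mean was 0.442 UMIs in sinusoidal cells with at least 20 S100a8 and S100a9 UMIs and 0.0538 in those under 5. Against the other YO1 cells, the sinusoidal cells under 5 had 4 of the 10 chemokine genes lower and 3 higher.

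Of 17 interferon-response genes, 2 were higher and 15 neither, with a median log2 ratio of 0.05. These were Iigp1, an interferon-induced GTPase, at 112 CPM in sinusoidal cells, against 2.76 CPM in the other YO1 cells and 3.22 CPM in the other YO2 cells, and Bst2, tetherin, at 559.6 CPM in sinusoidal cells, against 36.7 CPM in the other YO1 cells and 44.3 CPM in the other YO2 cells. Of 16 immediate-early and heat shock genes, none was higher, 2 were lower (1 against the other YO1 cells alone) and 14 neither, with a median of -1.15. Against the other YO1 cells, sinusoidal cells with under 5 S100a8 and S100a9 UMIs had 10 of the 16 lower (median -2.61). Fos had 738 CPM in sinusoidal cells, against 1786 CPM in the other YO1 cells and 3382 CPM in the other YO2 cells, and 91.0 CPM in sinusoidal cells with under 5 S100a8 and S100a9 UMIs. Of 8 cell cycle genes, 1 was lower (2 against the other YO1 cells alone) and 7 neither, and Mki67 was seen in 1.20% of sinusoidal cells and 4.87% of B-lineage cells. With under 5 S100a8 and S100a9 UMIs, sinusoidal cells had 5 of the 8 lower against the other YO1 cells (median -2.65).

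The 10 named genes with the lowest ratios were, all but Ccl5 and Mpo, higher in the other YO2 cells than in the other YO1 cells. Jchain, the joining chain of IgA and IgM, had 2.32 CPM in sinusoidal cells, against 334 CPM in the other YO1 cells and 5402 CPM in the other YO2 cells. Igha, Igkc, Ighg2b, Mzb1, Iglc1 and Iglv1 are likewise genes of antibody-secreting or B-lineage cells, and immunoglobulin segments share sequence, so their counts are uncertain. Sftpc, surfactant protein C of lung epithelium, had 0 UMIs in sinusoidal cells, 0.697 CPM in the other YO1 cells and 278 CPM in the other YO2 cells; its low ratio rested on YO2. Within YO1 the sinusoidal cells were at least 44.5-fold lower for Ccl5, at least 15.5-fold lower for Mzb1 and at least 13.9-fold lower for Iglc1, taking 3 UMIs over the group as the limit for a count of 0. Iglv1, also at 0 UMIs, was at least 1.54-fold lower within YO1, so its low ratio rested on YO2 as well. Mpo, the myeloperoxidase of neutrophil precursors, had 1.39 CPM in sinusoidal cells, against 234 CPM in the other YO1 cells and 0.121 CPM in the other YO2 cells.

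Because the sort required Ly6G, a neutrophil surface protein, the neutrophil genes in sinusoidal cells were counted. S100a8 and S100a9 encode calprotectin, the most abundant cytosolic protein of neutrophils, and Ly6g encodes the sorted antigen. The summed UMIs of S100a8 and S100a9, called S100 UMIs here, fell into separate ranges, with 390 sinusoidal cells under 5 UMIs, 52 cells with 5 to 19 and 308 cells with at least 20. Of all sinusoidal cells, 27 lay between 15 and 24. The share with at least 20 was 41.1% of sinusoidal cells (37.5 to 44.7%) and 29.8% of B-lineage cells (104 of 349), which should lack these genes too. The 308 cells had a median of 72 S100 UMIs, and the 10951 YO1 neutrophils (at least 20 S100 UMIs, a Csf3r UMI and neither of the other marker sets) a median of 75.

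**Figure D3:**
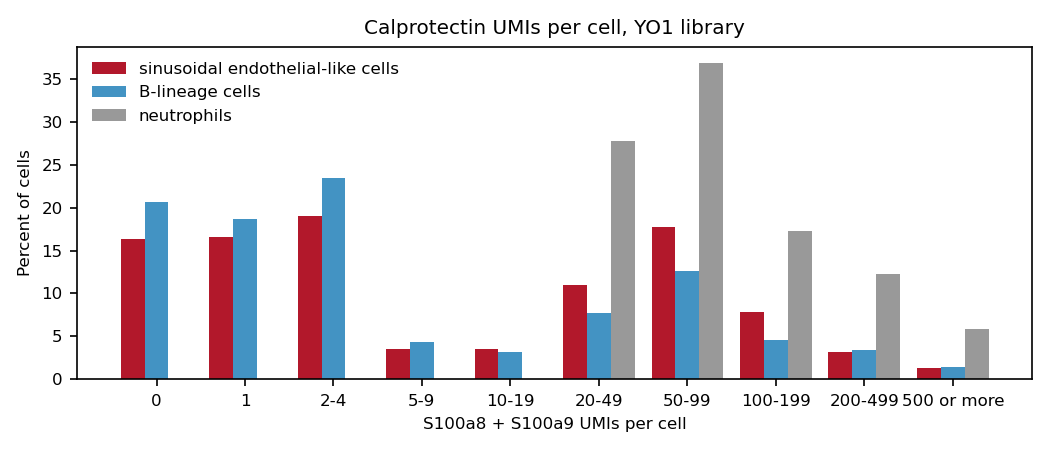
Percent of YO1 cells (vertical axis) by S100a8 and S100a9 UMIs together (horizontal axis) for 750 sinusoidal cells, 349 B-lineage cells and 10951 neutrophils, the last selected at 20 or more. Sinusoidal and B-lineage cells each have a group at 0 to 4 UMIs and another at 20 or more, with few cells between.

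Ly6g was seen in 45 of 750 sinusoidal cells, 6.00% (4.41 to 7.95%), in 6.88% of B-lineage cells (4.46 to 10.1%), in 15.7% of macrophages and in 22.2% of neutrophils. Of the 45 cells, 44 were among the 308 with at least 20 S100 UMIs. None of the 390 cells under 5 S100 UMIs had a Ly6g UMI, which allows a share of up to 0.941% (95% exact upper limit). After thinning to 500 UMIs the share was 1.20% in sinusoidal cells, 0.578% in B-lineage cells and 10.6% in neutrophils, with 3 sinusoidal, 3 B-lineage and 80 neutrophil cells too shallow to thin. The intervals of sinusoidal and B-lineage cells overlapped. Among sinusoidal cells, Ly6g UMIs lay in those with at least 5 S100 UMIs. Of 219 B-lineage cells under 5 S100 UMIs, 5 had a Ly6g UMI (2.28%).

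The 308 sinusoidal cells with at least 20 S100 UMIs (S100-rich) were deeper than the 390 with under 5 (S100-poor). Their median was 3418 UMIs, against 2210 UMIs in the S100-poor cells, a difference of 1208, and the neutrophil median was 1136. The B-lineage cells split by the same counts had medians of 3049.5 UMIs when S100-rich and 1238 UMIs when S100-poor. Endothelial genes were close to equal. For 38 sinusoidal and pan-endothelial genes, mean UMIs per cell in S100-rich over S100-poor sinusoidal cells had a median ratio of 0.964, with a range of 0.836 to 1.21, and 8 of the 38 ratios were above 1. Ehd3 had 15 UMIs per S100-rich cell and 15.6 per S100-poor cell, and Kdr 9.48 and 10.4. Cd44, a leukocyte adhesion gene, had 3.68 and 0.151 UMIs per cell, and the neutrophil chemokine gene Cxcl2 2.16 and 0.0487.

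**Figure D4:**
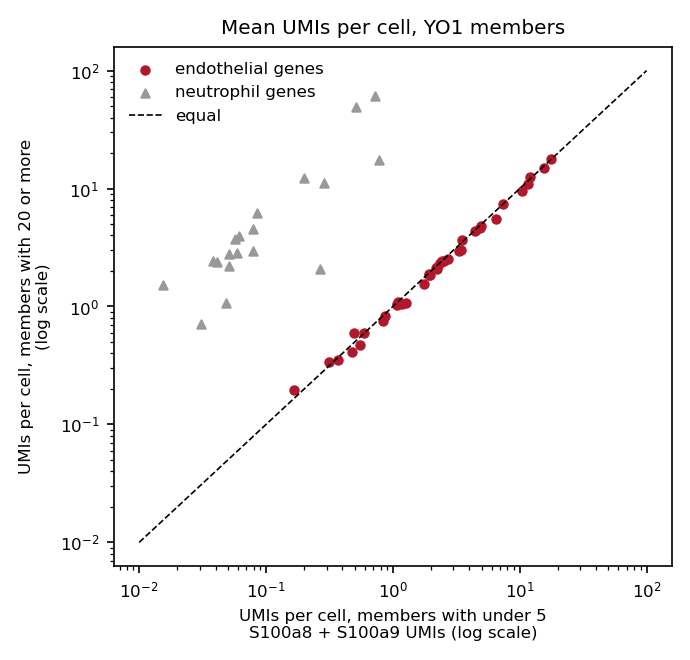
Mean UMIs per cell of 38 endothelial genes (red circles) and of the neutrophil list (grey triangles), with sinusoidal cells of 20 or more S100a8 and S100a9 UMIs on the vertical and those under 5 on the horizontal axis, both logarithmic. Endothelial genes lie along the line of equality and neutrophil genes far above it. S100a8 and S100a9 are among the triangles, and their place was fixed by the split. Ly6g and Cd177, with 0 UMIs in the cells under 5, cannot be shown.

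The neutrophil genes of the S100-rich sinusoidal cells did not keep exactly the proportions of the neutrophils. Per 100 UMIs of S100a8 and S100a9, the granule genes Ngp, Ltf and Camp had 10.2, 2.57 and 3.58 UMIs in S100-rich sinusoidal cells and 16.1, 4 and 5.29 in neutrophils. Other genes of the list went the other way, with 3.44 and 2.56 for the chemokine receptor Cxcr2 and 2.70 and 2 for the G-CSF receptor Csf3r. The neutrophils were selected to hold a Csf3r UMI, while 89.0% of the S100-rich sinusoidal cells had one, so the Csf3r values are not on an equal footing. Of the 19 neutrophil genes besides S100a8 and S100a9, 10 were above and 9 below their neutrophil value on this scale, with log2 ratios of -0.66 to 0.62 and a median of 0.05. Il1b had 11.2 UMIs in S100-rich sinusoidal cells and 7.76 in neutrophils. Whether a sinusoidal cell and a neutrophil were captured together, or stuck to each other before the sort, was not tested. Among the 21 neutrophil genes 8 were at least 4-fold lower in all sinusoidal cells than in all other cells and 13 neither, with a median log2 ratio of -1.70. The 21 genes include S100a8 and S100a9, which set the S100-poor class. Against the other YO1 cells alone, the neutrophil median was -6.04 in the S100-poor cells and -2.09 in all sinusoidal cells, beside medians of 0.25 and 0.15 over all genes. On the same basis the 14 sinusoidal genes had medians of 6.34 in the S100-poor and 5.94 in all sinusoidal cells, and the pan-endothelial genes 7.64 and 7.31.

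Sinusoidal cells differ along the liver lobule, which blood crosses from the portal tract to the central vein. In mouse, Wnt2, Wnt9b, Rspo3, Kit, Cdh13 and Thbd lean to the central side, and Efnb2, Dll4, Ltbp4, Msr1 and Ntn4 to the portal side. Fabp4, Lhx6 and Dkk3 were added to the central list and Cd36, Adgrg6 and Il1a to the portal list. Each cell was given the number of central genes with a UMI minus the number of portal genes with one. By a difference of at least 2, 225 cells (30.0%) leaned to the central list, 257 (34.3%) to the portal list and 268 (35.7%) to neither. These classes are ranges on a scale without a gap, with 79 cells at a difference of 2 and 105 at 1 on the central side. Median depth was 2735, 2648 and 2637 UMIs in the central-leaning, portal-leaning and in-between cells, and the S100-rich share was 41.3, 38.5 and 43.3%.

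Against all other cells, 7 of 8 central-list and 6 of 8 portal-list genes that could be compared were at least 4-fold higher and none lower. Within sinusoidal cells, genes of 1 list tended to be seen in the same cells. Of 79 cells with a Rspo3 UMI, 74 also had Fabp4 (93.7%), against 46.9% of the cells without Rspo3. Wnt2 was seen in 66 of the 79 (83.5%), against 41.9% of the rest. Kit was in 56.2% of the 347 cells with Wnt2 and in 25.6% of those without. Across lists the order was turned round. Msr1 was seen in 11.5% of the cells with Wnt2, against 33.5% of those without, and Dll4 in 12.7% of the cells with Rspo3, against 34.3% of those without. Over 750 cells of the same library, scaled to 10000 UMIs per cell and log-transformed, all 28 pairs within the central list had a positive Pearson's r, as did 20 of 21 within the portal list, and 55 of 56 pairs across lists had a negative r. The medians were 0.27, 0.15 and -0.13, weak values in sparse counts. The strongest were 0.45 for Cdh13 with Fabp4, 0.29 for Ltbp4 with Dll4 and -0.29 for Fabp4 with Ltbp4. Among the 390 S100-poor cells the medians were 0.25, 0.16 and -0.14.

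**Figure D5:**
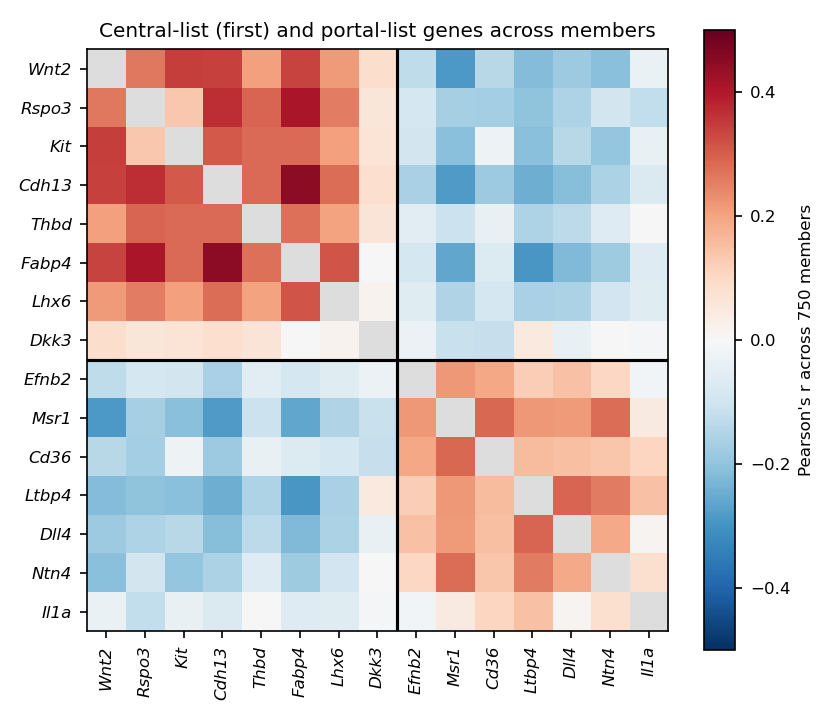
Pearson's r between 8 central-list and 7 portal-list genes across 750 sinusoidal cells, after scaling each cell to 10000 UMIs and taking logs. Red blocks (positive) lie within each list and a blue block (negative) between the lists, with a median of -0.13 for the blue block.

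Outside the 2 lists and the selecting genes, 31 of 2586 genes were at least 2-fold higher in central-leaning than in portal-leaning cells (1.2%) and 13 at least 2-fold lower (0.503%), with 10 CPM added to both sides. The cells were ordered by their own genes, so these are descriptions. Rdx, which encodes the cytoskeletal linker radixin, led on the central side with 190 CPM in central-leaning and 34.0 CPM in portal-leaning cells. Plvap had 637 CPM in central-leaning and 193 CPM in portal-leaning cells. Gja4, a gap junction gene, had 242 and 66.6 CPM in the same order. Bcam, Olfm1, Jup, Ltc4s, Rnase4, Slco3a1 and Ptgs1 completed the 10 highest, with log2 ratios of 1.59 to 1.78. On the portal side Ctgf, a secreted target gene of YAP, had 38.0 CPM in central-leaning and 227 CPM in portal-leaning cells. Cxcl9 had 83.6 and 309 CPM in the same order. Hes1, a Notch target gene, had 100.3 CPM in central-leaning and 275 CPM in portal-leaning cells, beside the Notch ligand Dll4 of the portal list. Lyve1 had 229.5 and 576 CPM in that order, and Lama4, Chst2, Plk2, Adam23, Ldb2 and Ifi207 completed the 10 lowest.

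Sinusoidal markers differed between the classes to unlike degrees. Lyve1, as given, and Adam23, with 223 CPM in central-leaning and 550.4 CPM in portal-leaning cells, were past 2-fold. Ehd3 had 5623 CPM in central-leaning and 5428 CPM in portal-leaning cells, and Cyp26b1 had 2179.8 and 2062 CPM. Gata4 had 386 and 372 CPM. Gpr182 was lower in central-leaning cells, with 1213 CPM against 1907 CPM in portal-leaning cells, and Clec4g likewise with 3940.1 and 5214 CPM. Clec1b, a C-type lectin-like receptor, was higher in central-leaning cells, with 254 CPM against 158 CPM in portal-leaning cells. These 3 stayed under 2-fold. Stab2 had 1646 CPM in central-leaning and 1431 CPM in portal-leaning cells.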

How the data were processed

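A matrix of UMI counts, 21995 genes by 38072 barcodes, was made by the authors with 1 prefix per library, and its deposited counts were used unscaled. Per the labels, libraries were read on a NextSeq 2000 (60 by 42 bases) with BCL Convert v3.6.3, and the submitters' processing notes name the mm10 build. How reads were aligned, annotated and assigned to cells is not given in the sources used here. Sample tag and antibody libraries were not analysed here.

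UMIs were summed per cell class and scaled to CPM. A gene with at least 100 UMIs over all filtered cells was called at 4-fold (log2 of 2). The text names the 20 genes of highest and the 10 of lowest ratio (the lowest needing 50 CPM in other cells), without the selecting genes, gene models, ribosomal and mitochondrial genes. All list genes (16 function and 14 marker lists) could also be named. B-lineage cells and macrophages needed 5 UMIs of their 3 genes. Shares carry exact Clopper-Pearson and levels exact Poisson intervals of 95%. With 1 library holding nearly all members, no test was possible. The cells, lists and comparisons were chosen with earlier results of these data known. The S100-poor class, the zone classes and their named genes (10 each way) were chosen after values were seen. Of 335 list genes, 334 were in the matrix and 282 passed the filter. On simulated counts for the comparison with all other cells (11678 genes), 100 of 100 genes raised 8-fold and 98 of 100 lowered 8-fold were called, with 1 of 11478 unchanged genes. Alternatives varied the member threshold, cell and gene filters, pseudocount, averaging and library. Scripts ran in Python 3.11.15 with pandas 2.3.3, numpy 2.4.6, scipy 1.17.1 and matplotlib 3.10.9.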

Additional observations from a re-analysis of the deposited data

How the results depend on the processing

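The share of selected cells over both libraries was 2.05%, and 1.78% with a threshold of 10 UMIs. Leaving out a library in turn gave 0.00581 to 3.85%. Counts of genes at least 4-fold higher and lower were 1056 and 592 of 11678 as reported, and 991 and 588 of 10435 without YO2. Among genes with at least 1000 UMIs, where fewer genes were compared, they were 318 and 368 of 6861. A pseudocount of 5 CPM gave 193 lower genes, a mean over cells in place of a sum gave 1649 higher genes, and leaving out the cells with at least 20 S100a8 and S100a9 UMIs gave 1472 lower genes. The causes were not tested. The share with Ly6g was 5.99% over all 751 cells and 1.20% after thinning to 500 UMIs, where fewer UMIs are read. The share with S100a8 and S100a9 was 41.0% at 20 UMIs and 47.9% at 5. The other 23 settings for these results stayed within 1.5 times or within the counting interval, and no gene list with a median past 4-fold changed sign under the settings run. Some lists under that line did. The hepatocyte median was -0.89 as reported and 1.49 without the gene filter. Against the other YO1 cells alone, the list genes Timd4, C1qb, Reln, Ccrl2, Mgp, Cd86 and Nr4a1 were no longer at least 4-fold lower and Alb and Vcam1 no longer higher, while Bmx, Col1a1, Klrb1c, S100a8, S100a9, Itgam, Cd63 and Top2a became lower and Il1a and Itgb1 higher. Without YO1 only 1 cell remained, so genes, lists and shares have no value there. No paired analysis was possible because 1 library held 750 of the 751 cells. Depth limits the shares of cells with a UMI, and counting intervals say nothing of differences between animals.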

Other observations

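Endothelial cells outside the selection were counted in both libraries. Cells with at least 5 UMIs of Cdh5, Kdr, Ptprb and Egfl7 together that did not meet the sinusoidal rule numbered 58 in YO1 (0.297% of filtered cells, 0.226 to 0.384%) and 57 in YO2 (0.331%, 0.251 to 0.429%). Of these, 16 in YO1 and 55 in YO2 had 0 UMIs of Clec4g, Stab2 and Oit3. Of the 55 cells of YO2, 48 had a UMI of Tmem100 and 45 of Foxf1, genes of lung capillary endothelium in mouse, 39 of Ly6c1, 18 of Car4 and 14 of Vwf. Gpr182 was seen in 20 of the 55, Cyp26b1 in 15 and Ehd3 in 2. Gata4 had 0 UMIs in them. Of the 16 cells of YO1, 3 had Gpr182, 5 Cyp26b1, 2 Ehd3, 12 Tmem100, 11 Foxf1, 7 Ly6c1 and 3 Vwf. The genes listed here were chosen after the selected cells' values were seen.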
